A study of Mus musculus with 8 samples.

Results

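The genes of the CDK inhibitors were examined in mouse keratinocytes (KCs), the epithelial cells of the epidermis, after 1 and 3 weeks in culture. The 7 members were taken by gene name from the deposited tables, which list 41457 genes, and all 7 were found and passed the filter on low counts. They fall into the INK4 family of 4 genes (Cdkn2a, Cdkn2b, Cdkn2c and Cdkn2d) and the CIP/KIP family of 3 genes (Cdkn1a, Cdkn1b and Cdkn1c). KCs came from tail skin of adult wild-type C57BL/6 mice, were grown untreated in serum-free medium with 0.06 mM Ca++ and were split as they neared confluence. They were harvested after 1 week (4 samples) or 3 weeks (4 samples). All samples share this strain, medium and way of preparation. The groups differ by time in culture and by the splitting that goes with it. They may also differ by KC batch, as the labels do not say which samples share a batch. The labels speak of independent experiments but do not say how many mice went into each preparation. The cells are a culture and not the intact epidermis.

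CDK inhibitors hold back the cell cycle by binding cyclin-dependent kinases. INK4 proteins bind the kinases Cdk4 and Cdk6 and keep them from their D-type cyclins, whereas CIP/KIP proteins bind complexes of cyclins E and A with Cdk2 and, in some settings, help assemble the D-type complexes. When the kinases are held back, the retinoblastoma protein stays active and the E2F factors that drive S-phase genes stay silent. In skin and other tissues Cdkn2a is widely used as a marker of senescent cells, and Cdkn1a is a classical target of p53.

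Cdkn2a (ENSMUSG00000044303) lies on the minus strand of chromosome 4 from 89274471 to 89294653 (GRCm38) and encodes 2 unrelated proteins through alternative first exons. The first exon of p16INK4a, the inhibitor of Cdk4 and Cdk6, spans 207 bases (89281986 to 89282192) in GENCODE M21. The first exon of p19ARF, which stabilizes p53 by binding Mdm2, spans 320 bases (89294334 to 89294653). Both are spliced to the same second exon (89276645 to 89276985), where the proteins are read in different frames. The junctions are shown because only reads from the first exons or across these junctions tell the products apart, with 30 bases of the first exon in lower case and the first 30 bases of the shared second exon in capitals.
p16INK4a junction: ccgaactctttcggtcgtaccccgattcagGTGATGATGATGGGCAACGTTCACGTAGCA
p19ARF junction: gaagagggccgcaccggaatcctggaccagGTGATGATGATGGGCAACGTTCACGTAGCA
The transcripts share 575 of the 1172 exonic bases of the gene (49.1%), and 1172 bases is also the exon length that the deposited tables give for Cdkn2a. The tables hold a sum over both products, so every Cdkn2a value here stands for p16INK4a and p19ARF together, and their shares were not measured.

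Cdkn2b (ENSMUSG00000073802), which encodes p15INK4b, lies 11.6 kb from Cdkn2a on the same strand of chromosome 4 (89306299 to 89311039). Stretches in front of the start sites of this locus are printed because both genes changed in the same direction between the time points. They come from the RefSeq promoter windows (GRCm38.p6), which reach 250 bases before and 50 bases after a start, and leave out bases that GENCODE M21 assigns to an exon. Capitals mark matches to 5 short motifs searched on both strands: the TATA box TATAAA, the CCAAT box CCAAT, the GC box GGGCGG, the E2F sites TTTCCCGC or TTTGGCGC, and the E box CACGTG.
Cdkn2a, p19ARF start, chr4:89294654-89294869, minus strand: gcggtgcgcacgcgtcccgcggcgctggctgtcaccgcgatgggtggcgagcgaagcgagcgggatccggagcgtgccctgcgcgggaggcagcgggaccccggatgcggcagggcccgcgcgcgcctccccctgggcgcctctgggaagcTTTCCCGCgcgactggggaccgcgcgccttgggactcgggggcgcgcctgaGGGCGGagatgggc
Cdkn2a, p16INK4a start, chr4:89282193-89282442, minus strand: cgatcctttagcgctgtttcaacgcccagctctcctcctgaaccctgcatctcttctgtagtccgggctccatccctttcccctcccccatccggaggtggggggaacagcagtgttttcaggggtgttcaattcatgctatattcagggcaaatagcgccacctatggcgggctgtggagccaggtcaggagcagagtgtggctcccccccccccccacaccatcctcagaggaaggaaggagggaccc
Cdkn2b start, chr4:89311040-89311282, minus strand: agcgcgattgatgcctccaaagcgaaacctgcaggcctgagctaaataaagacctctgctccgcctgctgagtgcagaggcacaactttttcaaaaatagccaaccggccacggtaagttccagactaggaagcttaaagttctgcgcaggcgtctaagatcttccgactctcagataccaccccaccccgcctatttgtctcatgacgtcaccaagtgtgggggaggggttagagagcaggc
Positions are those of the first base of a match, counted from 0 at the RefSeq start. In the p19ARF window an E2F match stood at position -99 and GC boxes at -48, -14 and 31, of which the first is in the stretch shown. The windows of p16INK4a and Cdkn2b held no match before the start. After it, p16INK4a had a CCAAT box at 20 that overlaps a GC box at 23, and Cdkn2b had a GC box at 4. Of all 32851 promoter windows, 1.56% held an E2F match, 35.7% a GC box, 37.4% a CCAAT box, 13.6% a TATA box and 7.15% an E box. The same search found no E2F match in the other windows. It found GC boxes in those of Cdkn2d and Cdkn1b and in 1 of the 2 windows of each of Cdkn2c and Cdkn1a. CCAAT boxes stood in the windows of Cdkn2d and Cdkn1b and in the other Cdkn2c window, which also held an E box. No window of a member held a TATA box. No window was matched for Cdkn1c. The matches describe the letters only.

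The deposited tables give reads per gene and RPKM, which are reads scaled to exon length and library size. Levels of different genes can be compared by RPKM only approximately, because the exon length can exceed that of a transcript. For Cdkn2a it is 1172 bases, while the transcripts have 852 and 895 bases. Between 13896807 and 20026084 exon reads were counted per sample, and 81.6% to 84.7% of them mapped to a single place. RPKM values are printed as levels, while log2 fold changes are 3 weeks over 1 week from the exon reads, fitted by edgeR's quasi-likelihood test over 12590 genes with TMM normalization and Benjamini-Hochberg adjustment. Over all tested genes the median was 0.03 in this fit and -0.16 on the scale log2(RPKM + 0.1). The KC markers Krt5, Krt14, Trp63, Itga6, Itgb4, Col17a1, Dsg3 and Sfn were all detected, with summed levels of 13279 to 15974 RPKM at 1 week and 8549 to 9619 RPKM at 3 weeks, and 2 of the 8 were lower at 3 weeks (Krt5 and Itga6). Summed markers of fibroblasts (7 genes) reached 3.53 to 6.32 RPKM at 1 week and 2.71 to 5.95 RPKM at 3 weeks, with no call. Melanocyte markers (5 genes, 4 tested) summed to 3.18 to 20.9 RPKM at 1 week and 1.26 to 5.50 RPKM at 3 weeks, and Pmel was lower at 3 weeks. Leukocyte markers (4 genes) summed to at most 2.63 RPKM, with Cd207 at 0 in all samples, and endothelial markers (4 genes) to at most 0.559 RPKM. The part of the other cell types in the results was not tested. In bulk RNA, fewer cells that express a gene and less RNA per cell cannot be told apart.

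After 3 weeks, 3 of the 7 inhibitor genes were higher (Cdkn2a, Cdkn2b and Cdkn1a), 1 was lower (Cdkn2c), and Cdkn2d, Cdkn1b and Cdkn1c did not pass the test. Over all tested genes 32.8% passed in either direction, 15.7% being higher and 17.0% lower at 3 weeks. The RPKM ranges of the time points did not overlap for 4 of the 7 genes, against 37.0% of all tested genes. The median log2 fold change of the 7 genes was -0.06. Within the INK4 family 2 genes were higher and 1 lower, and within the CIP/KIP family 1 was higher.

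**Figure D1:**
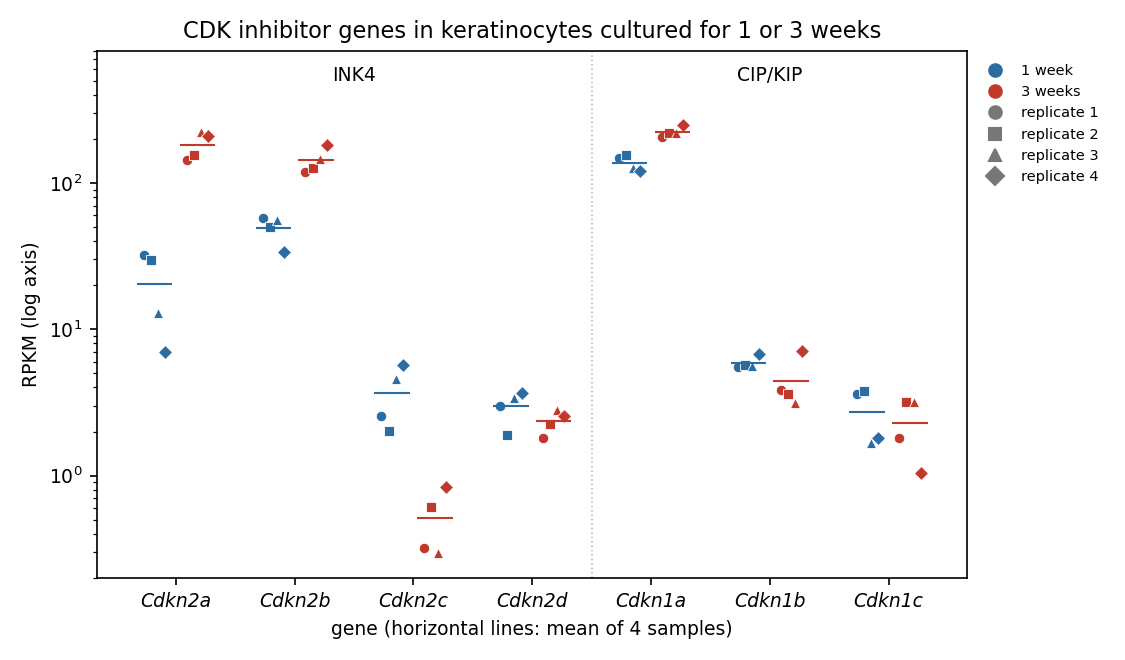
RPKM (log axis) of the 7 CDK inhibitor genes in each of the 4 samples at 1 week (blue) and the 4 samples at 3 weeks (red), with marker shapes for the replicate number and lines for group means. Cdkn2a, Cdkn2b and Cdkn1a lie higher and Cdkn2c lower in every 3-week sample than in any 1-week sample, while the points of the other genes overlap.

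Cdkn2a had the largest fold change of the 7 genes. In the 1-week replicates 1 to 4 its level was 32.3, 29.8, 12.9 and 6.97 RPKM (720, 720, 217 and 144 exon reads). In the 3-week replicates 1 to 4 it was 142, 156, 222 and 210.4 RPKM (3111, 2996, 4280 and 3623 exon reads). The 3-week samples all lay above the 1-week samples, and at 1 week replicates 1 and 2 were well above replicates 3 and 4. The log2 fold change was 3.33 (95% interval 2.25 to 4.41, adjusted p = 0.00124, edgeR). Only 0.50% of the tested genes had a larger log2 fold change. Among the genes detected in a sample, ordered by RPKM, Cdkn2a took places 1567 to 5463 at 1 week and 223 to 339 at 3 weeks.

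The 1-week samples differed more in Cdkn2a than in most genes of like level. The coefficient of variation of its RPKM was 60.9% over the 4 samples at 1 week, and 98.9% of the 2975 tested genes whose mean lay within 2-fold of it had a smaller value, with a median of 10.6%. At 3 weeks the coefficient was 21.7%, close to the median of 21.8% of the 426 genes of like level. Leaving out each sample in turn moved the log2 fold change between 3.04 and 3.62. Reads across exon junctions, which can only come from spliced RNA, gave 152, 144, 37 and 35 reads at 1 week and 648, 645, 879 and 772 reads at 3 weeks. They separated the time points in the same direction. Intronic reads of Cdkn2a numbered 2 to 4 per sample at 1 week and 13 to 32 at 3 weeks.

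Cdkn2b, whose product inhibits the same kinases as p16INK4a and is known as a target of TGF-beta signalling, was the higher of both neighbours at 1 week. Its level was 57.9, 50.1, 55.9 and 33.8 RPKM in the 1-week replicates 1 to 4. In the 3-week replicates it was 119, 127, 146 and 180.4 RPKM. The lowest 3-week sample lay above the highest 1-week sample, and replicate 4 was the lowest of its group at 1 week and the highest at 3 weeks. The log2 fold change was 1.70 (SE 0.21, adjusted p = 0.000670, edgeR), and 3.42% of the tested genes had a larger one. Intronic reads were 3 to 6 per sample at 1 week and 10 to 34 at 3 weeks.

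The order of these neighbours differed between the time points. The ratio of Cdkn2a to Cdkn2b RPKM was 0.557, 0.595, 0.231 and 0.206 in the 1-week replicates and 1.20, 1.22, 1.52 and 1.17 in the 3-week replicates. By RPKM, Cdkn2b was thus above Cdkn2a in each 1-week sample and below it in each 3-week sample. By exon reads, 3-week replicate 4 kept the 1-week order, with 3684 reads for Cdkn2b and 3623 for Cdkn2a. Beyond Cdkn2b, the next tested gene is Dmrta1, 368 kb away, at 0.0332 to 0.0626 RPKM at 1 week and 0.256 to 0.584 RPKM at 3 weeks. Its 1-week values rest on a few reads per sample, and it passed the filter on low counts only through its 3-week samples. No test result is therefore given for it. On the other side of Cdkn2a, 1.07 kb away, the predicted gene Gm12606 had group means of 0.686 and 0.652 RPKM and did not pass the test (adjusted p = 0.945, edgeR).

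Cdkn2c (ENSMUSG00000028551, chromosome 4, 109660876 to 109667189), which encodes p18INK4c, moved against the other called members. Its level was 2.54, 2.01, 4.56 and 5.66 RPKM in the 1-week replicates (130, 111, 176 and 268 exon reads). In the 3-week replicates it was 0.320, 0.612, 0.295 and 0.836 RPKM (16, 27, 13 and 33 exon reads). The 3-week samples all lay below the 1-week samples, though the 3-week values rest on few reads. Cdkn2c fell by 2.70 on the log2 scale (SE 0.44, adjusted p = 0.00211, edgeR), and 1.60% of the tested genes had a smaller log2 fold change. With a pseudocount of 1 RPKM, which understates changes of low genes, limma gave -1.57. Its intronic reads, 12 to 35 per sample at 1 week and 2 to 5 at 3 weeks, were also lower at 3 weeks. Reads across its junctions were 6 to 14 per sample at 1 week and 1 to 3 at 3 weeks, too few to be tested. The nearest tested gene, Faf1, 9.40 kb away, was lower as well, at -0.53 on the log2 scale (adjusted p = 0.0207, edgeR).

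Cdkn2d (ENSMUSG00000096472, chromosome 9, 21288410 to 21291407), which encodes p19INK4d, did not pass the test. Its level was 3.00, 1.88, 3.36 and 3.67 RPKM in the 1-week replicates and 1.81, 2.24, 2.82 and 2.55 RPKM in the 3-week replicates. The groups overlapped, with replicates 2 at 1 week and 1 at 3 weeks the lowest. The log2 fold change of -0.17 had a 95% interval of -0.79 to 0.45 (adjusted p = 0.679, edgeR). With 4 samples per group, no change and changes inside that interval are all compatible with the data.

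Of the CIP/KIP genes, Cdkn1a (ENSMUSG00000023067, chromosome 17, 29090976 to 29100727), which encodes p21, had the highest mean level of the 7 genes at both times. It was measured at 148, 154, 126 and 121 RPKM in the 1-week replicates. In the 3-week replicates it was at 205, 219, 219.8 and 249 RPKM. The groups did not overlap and the samples of a group lay close together, with coefficients of variation of 11.8% and 8.39%. The log2 fold change was 0.87 (95% interval 0.55 to 1.19, adjusted p = 0.00215, edgeR), and 11.6% of the tested genes had a larger one. Intronic reads of Cdkn1a were 26 to 31 per sample at 1 week and 23 to 138 at 3 weeks, which overlap. The gene on the opposite strand that overlaps Cdkn1a had 0 exon reads in every sample.

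Cdkn1b (ENSMUSG00000003031, chromosome 6, 134920401 to 134925513) encodes p27, an inhibitor that is high in many resting cells and is regulated to a large part through degradation of the protein. Its level was 5.56, 5.70, 5.63 and 6.72 RPKM in the 1-week replicates and 3.84, 3.61, 3.16 and 7.12 RPKM in the 3-week replicates. Replicates 1 to 3 at 3 weeks were below all 1-week samples, while replicate 4 was above them. The log2 fold change was -0.27 (95% interval -0.79 to 0.26, adjusted p = 0.411, edgeR). Without replicate 4 at 3 weeks it was -0.56 with an adjusted p of 0.00983 in the same test, so the call for Cdkn1b turned on this library. Over the other alternatives the adjusted p was 0.159 or higher.

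Cdkn1c (ENSMUSG00000037664, chromosome 7, 143458339 to 143461050) encodes p57 and is an imprinted gene. It stood at 3.58, 3.81, 1.67 and 1.81 RPKM in the 1-week replicates and at 1.82, 3.16, 3.19 and 1.03 RPKM in the 3-week replicates. Both groups held high and low samples and overlapped nearly entirely. Only 54.1% of its exon reads mapped to a single place. The log2 fold change of -0.06 (95% interval -1.04 to 0.92, adjusted p = 0.933, edgeR) became 0.15 with uniquely mapped reads, and neither passed the test. An antisense gene that overlaps Cdkn1c had at most 6 exon reads in a sample, and whether strand was used in counting is not stated.

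At 1 week the samples that were high in Cdkn2a were not high in all inhibitors. Replicates 1 and 2 held more Cdkn2a, Cdkn1a and Cdkn1c RNA and less Cdkn2c RNA than replicates 3 and 4. This held in RPKM, in TPM and in TMM-normalized reads, and is a description of 4 samples that was not tested. The split is not particular to the inhibitors. Across genes in general, the chi-square per degree of freedom between 2 samples was 20.3 and 15.5 within these pairs of replicates. Between the pairs it was 47.3 to 64.7.

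Summed over its members, the INK4 family differed more between the time points than the CIP/KIP family. INK4 RPKM added up to 95.7, 83.8, 76.8 and 50.1 in the 1-week replicates and to 264, 285, 371 and 394 in the 3-week replicates. CIP/KIP RPKM added up to 157, 164, 133 and 129.7 at 1 week and to 210.2, 226, 226 and 257 at 3 weeks. Neither family overlapped between the time points, and the mean at 3 weeks was 4.29 times that at 1 week for INK4 and 1.58 times for CIP/KIP. The ratio of INK4 to CIP/KIP was 0.611, 0.512, 0.577 and 0.386 in the 1-week samples and 1.25, 1.26, 1.64 and 1.53 in the 3-week samples. By RPKM, CIP/KIP RNA was thus the larger pool in each 1-week sample and INK4 RNA in each 3-week sample. This order needs no scaling between samples but depends on the scaling to exon length. That length is 3553 bases for Cdkn1a, 1172 for Cdkn2a and 1390 for Cdkn2b. By exon reads CIP/KIP was the larger family in every sample. At 3 weeks Cdkn1a had 12795 to 13546 reads, Cdkn2a 2996 to 4280 and Cdkn2b 2902 to 3684. The INK4 sum holds all Cdkn2a reads, also those of p19ARF, which is not an INK4 protein. At 3 weeks Cdkn2a made up 53.4% to 59.9% of it, so the order there rests on Cdkn2a, whose p16INK4a share was not measured. Sums over chosen members are given without a test.

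**Figure D2:**
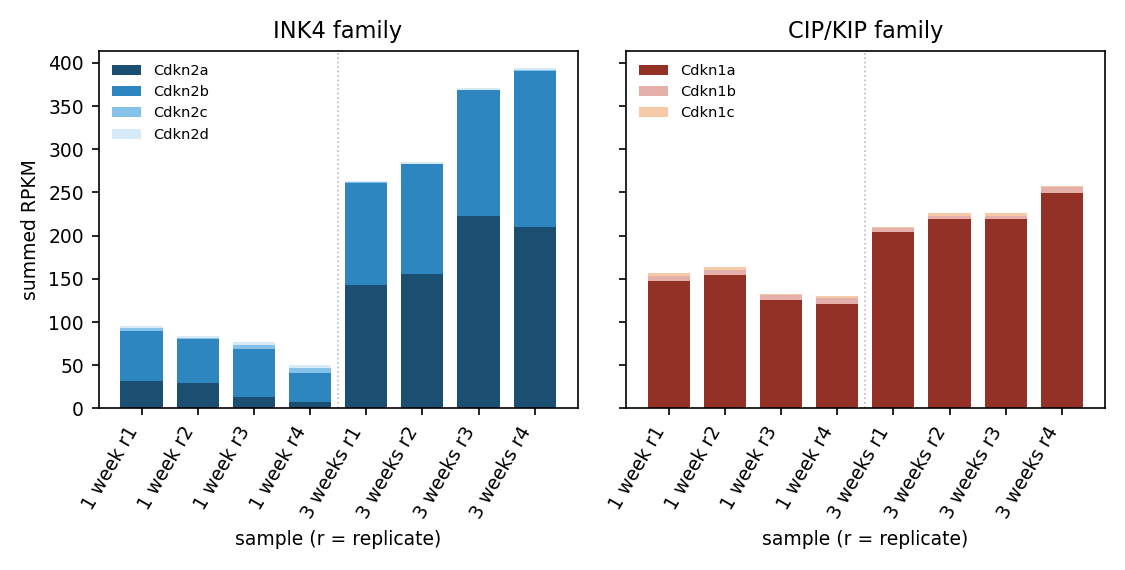
Summed RPKM of the INK4 genes (left) and the CIP/KIP genes (right) in each sample, stacked by gene on a common axis from 0. The INK4 bars stand at 50.1 to 95.7 RPKM at 1 week and 264 to 394 RPKM at 3 weeks. Cdkn2a and Cdkn2b make up most of each INK4 bar, with Cdkn2c and Cdkn2d visible at 1 week, and Cdkn1a makes up most of each CIP/KIP bar.

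The members contributed unequally to these sums. Cdkn1a made up 93.4% to 94.5% of the CIP/KIP sum at 1 week and 96.8% to 97.3% at 3 weeks. Cdkn2b held 59.8% to 72.9% of the INK4 sum at 1 week and 39.3% to 45.8% at 3 weeks, while Cdkn2a went from 13.9% to 35.6% at 1 week to 53.4% to 59.9% at 3 weeks. Cdkn2c made up 2.39% to 11.3% of the INK4 sum at 1 week and 0.0793% to 0.214% at 3 weeks, and Cdkn2d 2.24% to 7.34% and 0.647% to 0.786%. By group mean the order of levels at 1 week was Cdkn1a, Cdkn2b, Cdkn2a, Cdkn1b, Cdkn2c, Cdkn2d and Cdkn1c, in which neighbouring ranges overlapped from Cdkn1b onwards. At 3 weeks it was Cdkn1a, Cdkn2a, Cdkn2b, Cdkn1b, Cdkn2d, Cdkn1c and Cdkn2c, and the ranges overlapped between Cdkn1a and Cdkn2a, between Cdkn2a and Cdkn2b, and between Cdkn2d and Cdkn1c.

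The genes that the inhibitors act with were taken as a list of 28 genes, of which 4 were higher and 8 lower at 3 weeks and 16 did not pass the test. Over all tested genes 15.7% were higher and 17.0% lower. The list's median log2 fold change was -0.14, against 0.03 for all tested genes. Among the D-type cyclins and their kinases, the partners of INK4 proteins, Ccnd1 (cyclin D1) had mean levels of 259 ± 21.1 and 86.1 ± 18.5 RPKM at the time points (SD, n = 4 per group). It was lower, at -1.42 on the log2 scale (adjusted p = 0.000712, edgeR), and at -1.58 with the 60.9% of its reads that mapped to a single place. Ccnd3 was higher by 0.61 on the log2 scale (adjusted p = 0.0348, edgeR), a call that was lost under 12 of 20 alternatives. The kinases themselves did not pass the test, with group means of 68.4 and 58.1 RPKM for Cdk4 and 11.1 and 8.84 RPKM for Cdk6. With reads over exon junctions, however, Cdk6 was lower, at -1.13 against -0.17 (adjusted p = 0.00433 against 0.373, edgeR). Ccnd2 stood at 77.9 and 68.2 RPKM.

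The partners of CIP/KIP proteins were lower in 3 of 4 cases. Ccna2 (cyclin A2) lay between 20.4 and 39.4 RPKM at 1 week and between 0.950 and 2.37 RPKM at 3 weeks, and its log2 fold change was -3.90 (SE 0.33, adjusted p = 0.000204, edgeR). Ccne2 had a log2 fold change of -1.96, or -2.49 with the 38.7% of its reads that mapped to a single place, and Cdk2 one of -0.77. In a fit blocked by replicate number, Cdk2 was at -0.76 and no longer passed (adjusted p = 0.0523, edgeR). Ccne1 had non-overlapping RPKM ranges (10.14 to 15.8 at 1 week and 8.75 to 10.13 at 3 weeks) but did not pass the test (log2 fold change -0.30, adjusted p = 0.216, edgeR). It passed in 1 of 20 alternatives (-0.53, adjusted p = 0.037, edgeR). None of the 4 was higher in edgeR, DESeq2 or limma, also at an unadjusted p under 0.05.

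Of the pocket proteins and E2F factors, which lie downstream of the kinases, Rbl1 (p107) fell by 1.98 on the log2 scale (adjusted p = 0.000339, edgeR). Neither Rb1, at 0.34 on that scale (adjusted p = 0.0557, edgeR), nor Rbl2, at 0.33, passed, but DESeq2 called Rb1 higher (0.35, adjusted p = 0.0206). E2f3 was higher by 0.42 (adjusted p = 0.0482, edgeR), but only 3 of 20 alternatives kept this call. E2f1 and E2f2 did not pass. In the p53 arm, into which p19ARF feeds, Mdm2, both the ubiquitin ligase of p53 and its target gene, went from 17.4 to 29.0 RPKM at 1 week to 44.0 to 50.2 RPKM at 3 weeks (log2 fold change 1.13, adjusted p = 0.00170, edgeR). Trp53 itself stood at 38.0 ± 1.52 and 27.8 ± 4.87 RPKM (SD, n = 4), with ranges that did not overlap, and was at -0.29 on the log2 scale without passing the test (adjusted p = 0.137, edgeR). In limma it was lower at both pseudocounts, at -0.46 and -0.45 (adjusted p = 0.0257 and 0.0254).

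Skp2, the F-box protein that marks p27 for degradation, was lower at 3 weeks (0.491 ± 0.0512 RPKM) than at 1 week (1.38 ± 0.331 RPKM, SD, n = 4 per group), at -1.32 on the log2 scale (adjusted p = 0.00257, edgeR). Its cofactor Cks1b did not pass at -0.78 (adjusted p = 0.0639, edgeR) but passed under 10 of 20 alternatives, each time with a lower level at 3 weeks. Of 5 factors known to repress inhibitor genes, the Polycomb methyltransferase Ezh2 fell by 1.73 and Myc fell by 1.05 on the log2 scale. Id1 was higher by 1.62, a call lost under 11 of 18 alternatives, and the Polycomb genes Bmi1 and Cbx7 had log2 fold changes of 0.01 and 0.13. Of 4 factors known to activate inhibitor genes (Ets2, Foxo3, Smad3 and Zbtb17) none passed in edgeR, with 1 (Smad3, higher) at an unadjusted p under 0.05, and none passed in DESeq2 or limma. Their log2 fold changes were -0.32, 0.35, 0.45 and 0.01. In edgeR, Smad3 passed without 3 weeks replicate 3 (0.57, adjusted p = 0.032) and Ets2 without 3 weeks replicate 4 (-0.47, adjusted p = 0.0369).

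**Figure D3:**
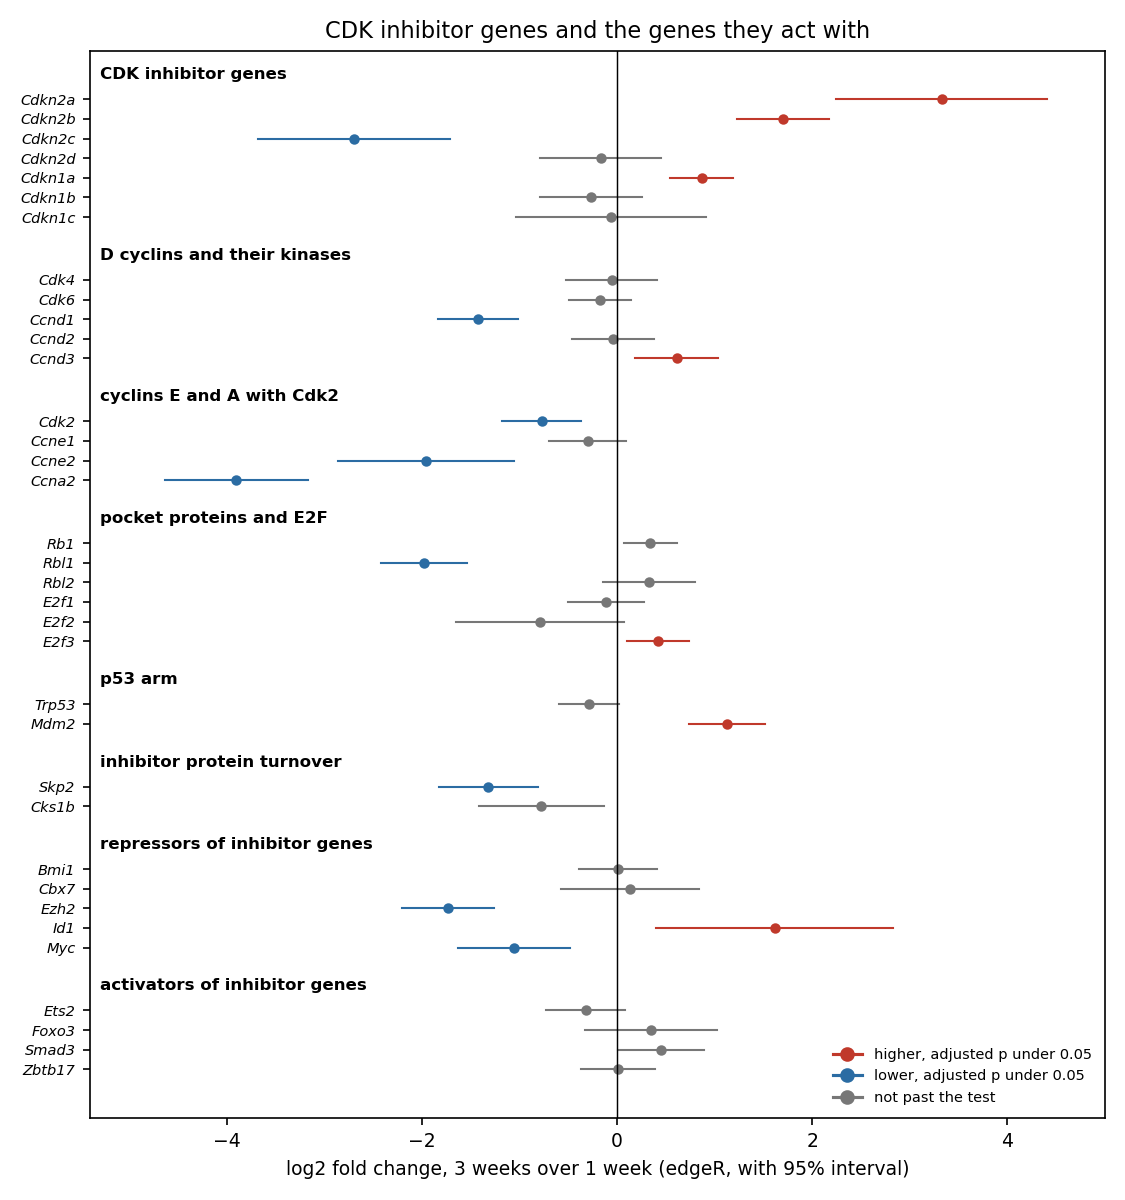
Log2 fold change (3 weeks over 1 week, edgeR) with its 95% interval for the 7 CDK inhibitor genes and the 28 genes they act with, grouped by role, in red where higher, blue where lower and grey where the test was not passed. Cdkn2a at 3.33 and Ccna2 at -3.90 lie at the opposite ends.

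For each called member, the genes most like it over the 8 samples were sought by Pearson's r of log2 CPM (exon reads scaled to library size, TMM-normalized) among 8594 or 8595 genes whose mean reached 10 CPM. The samples fall into 2 time points, so the measure mostly reads the difference between them, and it is given as a description. For Cdkn2a they were Asah1, Snx2 and Epdr1, and for Cdkn2b they were Nek7, Pgpep1 and Sesn3. For Cdkn1a they were Aga, Saraf and Dnal1, and for Cdkn2c they were Phospho1, Samhd1 and Mars2. Each reached an r of at least 0.98, but many other genes came close, so those named are not set apart. Asah1 (acid ceramidase) and Aga (aspartylglucosaminidase) are lysosomal enzymes, and both were higher at 3 weeks, with log2 fold changes of 0.47 and 1.54. Samhd1, a dNTP hydrolase, was lower, at -0.79 on the log2 scale. Of Phospho1 only 4.42% of the reads mapped to a single place, so its value is uncertain.

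**Figure D4:**
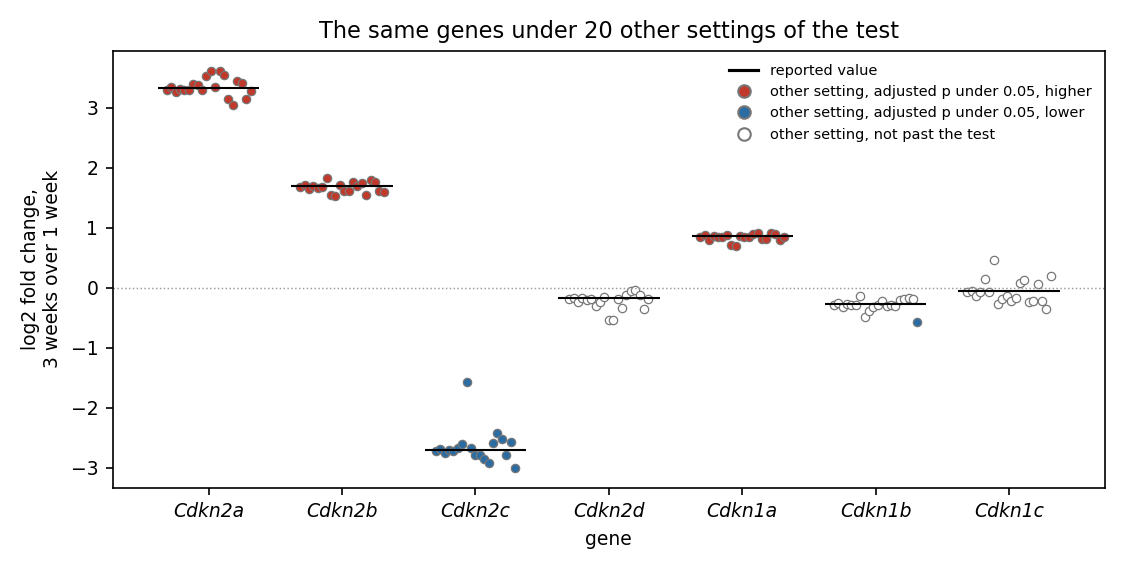
Log2 fold change of each CDK inhibitor gene as reported (line) and under up to 20 other settings of the test (points, filled where the adjusted p was under 0.05). Cdkn2a, Cdkn2b and Cdkn1a stay above 0 and Cdkn2c below 0 in each setting that tested them, Cdkn1b is filled in 1 setting, and Cdkn1c lies on both sides of 0.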

How the data were processed

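RNA of KCs cultured for 1 week or 3 weeks was analysed, 4 samples per group, grouped by the deposited labels. The authors prepared poly(A) libraries, used the CLC Genomics Workbench for alignment to GRCm38 and deposited, per sample, counts of reads on exons, genes, introns and exon junctions without normalization, and RPKM and TPM values. The annotation release and the use of strand are not given in the sources used here.

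Total exon read counts were tested with edgeR 4.0.16 (R 4.3.3): filterByExpr, TMM, glmQLFit and glmQLFTest over all 8 samples without pairing, as unpaired tests are named in the paper, with Benjamini-Hochberg adjustment over 12590 genes and a threshold of 0.05. Standard errors were derived from the F statistics. The fit was tested on simulated counts. Alternatives used DESeq2 1.42.0, limma 3.58.1 on log2(RPKM + 0.1) or log2(RPKM + 1), upper-quartile factors, other filters or read classes, replicate blocks, and the omission of each sample. An unblocked fit on 6 samples was added after the data were seen. Family sums of RPKM were not tested.

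Named genes were the 7 members, the 28 genes they act with, the nearest tested neighbours, overlapping genes, and the 3 genes most like each called member. The members and lists were chosen with earlier results of these data known. The paper describes batches of KCs that were sampled at both times, but the labels do not say which samples share a batch, and p-values measure the spread between these samples. Replicates of a group differed by more than sampling noise. The chi-square per degree of freedom was 15.5 to 64.7 between 1-week samples and 31.8 to 264 between 3-week samples. Python 3.11.15 and matplotlib 3.10.9 were used elsewhere. Sequences came from RefSeq (GRCm38.p6) and GENCODE M21.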

Additional observations from a re-analysis of the deposited data

Results flagged for a closer look

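Among 74 groups of 4 RPKM values (the 7 inhibitor genes, the 28 genes they act with and both family sums, at each time point), 2 held a sample whose gap to the others took up more of the range than Dixon's 95% critical value. Chance does so in about 1 of 20 groups. In Cdkn1b, 1 week replicate 4 stood at 6.72 RPKM, with the other 3 samples between 5.56 and 5.70. In Bmi1, 3 weeks replicate 4 stood at 5.65 RPKM, with the others between 8.22 and 8.47.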

How the results depend on the processing

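Cdkn2a, Cdkn2b and Cdkn1a remained higher and Cdkn2c lower, each past the threshold, in each of the 20 alternatives that tested them (19 for Cdkn2c), with log2 fold changes of 3.04 to 3.62, 1.53 to 1.83, 0.70 to 0.92 and -3.00 to -1.57. The number of inhibitor genes lower at 3 weeks was 0 with reads over exon junctions, where Cdkn2c and Cdkn2d had too few reads to be tested (none was lower there at an unadjusted p under 0.05 either), and 1 to 2 over the fits that leave out a sample. The added call was Cdkn1b, which ranged from -0.56 to -0.17 and passed without 3 weeks replicate 4. Cdkn1c turned to 0.15 with unique reads and 0.47 with reads over exon junctions, and lay between -0.35 and 0.19 over the fits that leave out a sample, never past the threshold. The number of pathway genes higher, 4 as reported, was 1 without a filter, 2 with at least 10 reads in every sample, 1 with reads over exon junctions, 2 in limma at either pseudocount, and 1 to 3 over the fits that leave out a sample. Of the 1981 tested genes higher at 3 weeks, the number became 1197 with reads over exon junctions, and 1313 and 1281 in limma with pseudocounts of 0.1 and 1. In limma with 0.1, 29.8% of the calls were higher, against 48.0% in edgeR. Of the pathway genes not past the test, Cdk4, Ccnd2, E2f1, Bmi1, Cbx7, Foxo3 and Zbtb17 lay on both sides of 0 over the alternatives. The sums at 3 weeks were 3.85 to 4.68 times those at 1 week for INK4 and 1.50 to 1.64 times for CIP/KIP over their alternatives.

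Samples with the same replicate number in the labels had correlations of deviations of -0.23, -0.15, -0.15 and 0.25 for numbers 1 to 4. Without a reference for such values, they cannot decide whether the numbers mark pairs. With the replicate numbers as a block, 1309 genes were higher. In that fit Cdkn2a, Cdkn2b, Cdkn2c and Cdkn1a had log2 fold changes of 3.53, 1.71, -2.66 and 0.87, each past the threshold. Another number in the deposited tables' names occurs at both times for 6 samples. It links 1 week replicate 3 with 3 weeks replicate 2, unlike the replicate numbers. With it as a block, 1316 genes and 1 pathway gene were higher, and 1 pathway gene was higher on the same samples without the block. Under this block Cdkn2a, Cdkn2b, Cdkn2c and Cdkn1a had log2 fold changes of 3.61, 1.62, -2.79 and 0.85, each past the threshold. Depth limits Cdkn2c most, with 13 to 33 exon reads per sample at 3 weeks, where 3 reads equal at most 0.0760 RPKM. Libraries were amplified, so this covers counting error only. With 4 samples per group, the intervals given for Cdkn2d, Cdkn1b and Cdkn1c include 0. No change and changes inside those intervals are all compatible with the data.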
